A study of Homo sapiens with 8 samples.

Results

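The comparison described here sets A673 cells carrying a short hairpin RNA against RING1B (shRING1B) beside A673 cells carrying a control hairpin against GFP (shGFP). It rests on 4 of the 8 arrays of the series, 2 per hairpin, chosen by the cell line and hairpin in their labels. All probe sets named to a single gene were considered, and where a gene had several, the brightest on average across the series stood for it. The difference was taken as shRING1B minus shGFP over 14884 genes, of which 11915 are protein-coding. The other 4 arrays are the same hairpins in SK-ES1, a second Ewing sarcoma line, and entered the fit to estimate the spread.

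A673 is an established cell line from Ewing sarcoma, a tumour of bone and soft tissue whose driver is a fusion of EWSR1 with an ETS factor, usually FLI1. RING1B, the product of RNF2, is the catalytic ubiquitin ligase of Polycomb repressive complex 1 (PRC1). PRC1 places ubiquitin on histone H2A and is best known for holding developmental genes silent, although forms of it also sit at active genes. The labels name neither the hairpin sequences nor the time after their introduction, and both groups carry a hairpin. The level of RNF2 was not analysed here, so no reading of the targeted gene stands behind the hairpin labels. The labels do not say whether a group's arrays stem from different cultures; the p-values below reflect the spread of these arrays alone, which may be technical.

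The deposited values are log2 expression values, on which a difference of 1 is a 2-fold change, and the A673 arrays had medians of 4.01 to 4.07. Arrays of 1 hairpin correlated at 0.9937 (shGFP) and 0.9911 (shRING1B) over genes, against 0.9827 to 0.9875 between hairpins. Of 20 Ewing sarcoma markers 14 were measured, 13 of them above the median of all probe sets (4.06), with a median level of 8.24. Their summed level was 113.6 to 114.2 on shGFP arrays and 112.7 to 113.96 on shRING1B arrays, and KIT was the 1 marker called. Markers of epithelial, immune, endothelial, fibroblast, skeletal muscle, neuronal and melanocyte cells had median levels of 3.41 to 4.46, and none was called. The summed levels of the immune (13.4 to 13.55 against 14.1 to 14.5), fibroblast (12.9 to 13.3 against 13.8 to 13.95) and muscle (17.8 to 18.3 against 18.7 to 18.8) lists were higher on both shRING1B arrays. The endothelial list was lower there (11.7 to 12.01 against 10.7 to 11.3). A single gene had the largest rise in each of the higher lists: CD68 (0.45, immune), THY1 (0.54, fibroblast) and DES (0.80, muscle). Other members of the immune and fibroblast lists rose by 0.11 to 0.21. In the muscle list MYF5 rose by 0.16, while MYOD1 and MYOG changed by -0.09 and -0.14. The part of these lists in the results below was not tested.

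Rises under the RING1B hairpin were fewer and smaller than falls. Limma called 105 genes higher (0.705% of the genes tested) and 452 lower (3.04%), a call being an adjusted p under 0.05, with no minimum fold. The rises spanned log2 changes of 0.46 to 1.24 with a median of 0.59, and the falls had a median of -0.76 and reached -2.42. Only 2 rises were 2-fold or more, the natriuretic peptide receptor NPR3 and the vault RNA VTRNA1-3, against 122 falls. Rises made up 18.9% of the calls in the reported fit and 38.7% when each array was centred on its median, a step that moved the median change of all genes from 0.01 to 0.08. At an unadjusted p under 0.05 the directions were closer, with 1317 genes higher (8.85%) and 1502 lower (10.1%).

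**Figure D1:**
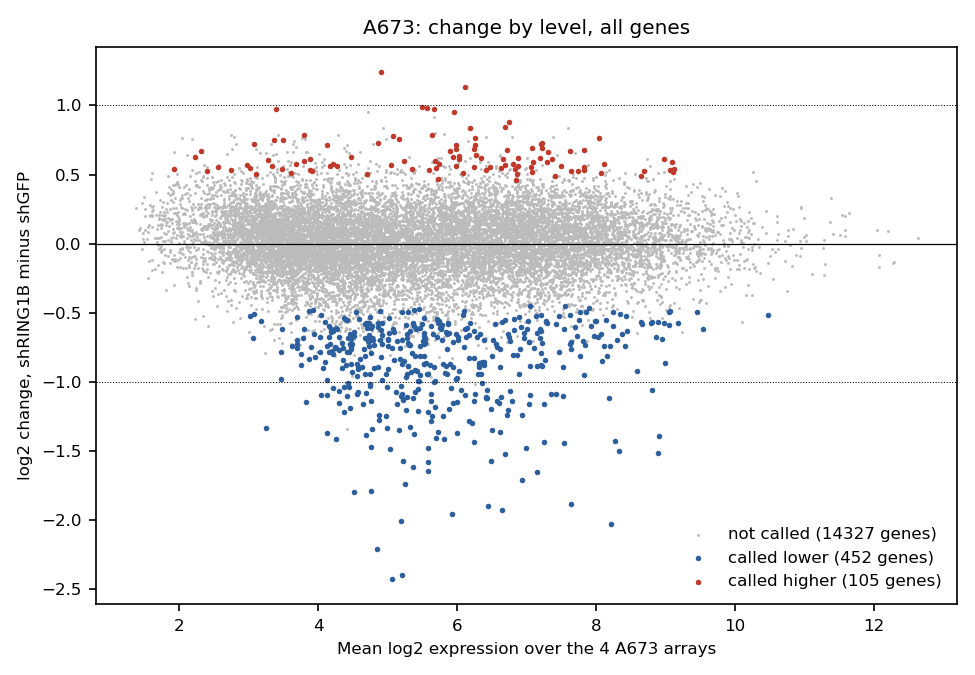
Each point is 1 of 14884 genes in A673, with its mean log2 expression over the 4 A673 arrays on the horizontal axis and its log2 change (shRING1B minus shGFP) on the vertical axis. Red points (105) were called higher, blue points (452) lower and grey points were not called; dotted lines mark 2-fold, below which lie 122 called falls and above which lie 2 called rises.

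The largest rise was NPR3, the receptor that clears natriuretic peptides. Its log2 expression was 4.49 and 4.08 on the shGFP arrays and 5.32 and 5.73 on the shRING1B arrays. Both shRING1B arrays lay above both shGFP arrays, with a log2 change of 1.24 (SE 0.175, limma adjusted p = 0.00499). Such a gap between the groups held in all 105 rises and in 26.0% of all genes. The reverse held in all 452 falls and in 23.9% of all genes, so a gap adds little to a call. HMOX1, the heme oxygenase that opens the heme ring, had 4.93 and 5.06 under shGFP and 5.61 and 6.36 under shRING1B. Its shRING1B arrays lay far apart for a rise of 0.99 (SE 0.218, limma adjusted p = 0.0384). QRFPR, the receptor of the RF-amide peptide QRFP, was at 5.25 and 4.90 under shGFP and 5.94 and 6.17 under shRING1B, without overlap (change 0.98, limma adjusted p = 0.00577).

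CAPN6 and DHRS3 were the steadiest rises when arrays were left out. CAPN6, a microtubule-binding calpain without protease activity, was at 5.15 and 5.20 under shGFP and at 6.16 and 6.14 under shRING1B. The arrays of each hairpin differed by far less than the 0.97 between hairpins (SE 0.125, limma adjusted p = 0.00284). DHRS3, which reduces retinal to retinol, was at 5.47 and 5.49 under shGFP and at 6.28 and 6.58 under shRING1B (change 0.95, SE 0.132, limma adjusted p = 0.00464). Of the 105 rises these were the 2 that stayed called with each of the 4 A673 arrays left out. Their highest adjusted p was 0.0329 for CAPN6 and 0.0499 for DHRS3, the latter next to the threshold.

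Several of the other rises encode developmental or signalling proteins. CRIM1, a membrane protein that binds bone morphogenetic proteins, went from 6.35 and 6.25 to 6.99 and 7.37 (change 0.88). PAX7, the transcription factor of muscle precursors and of part of the neural crest, went from 6.41 and 6.12 to 7.14 and 7.08 (change 0.84, SE 0.143, limma adjusted p = 0.0126). Neither gene's groups overlapped. NTSR1, the neurotensin receptor, rose by 0.72, the postsynaptic scaffold SHANK1 by 0.76, and LMO7, a LIM-domain protein of cell junctions, by 0.76. MCEMP1, a membrane protein of mast cells, rose by 0.83 from 5.70 and 5.84 to 6.49 and 6.72.

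Other large rises concern membranes, RNA and metabolism. The endosomal sorting subunit CHMP4C rose by 0.78, the phospholipid scramblase PLSCR4 by 0.72 and the channel-like protein TMC5 by 0.78. ANKRD52, a subunit of protein phosphatase 6, rose by 0.77, HENMT1, which methylates piRNA ends, by 0.75, and the biliverdin reductase BLVRB by 0.73. OCIAD2, C16orf54 and the matrix proteoglycan ASPN rose by 0.78, 0.73 and 0.72. PLSCR4 (3.62 and 3.91 under shGFP), TMC5 (3.42 and 3.39), HENMT1 (3.05 and 3.20) and ASPN (2.58 and 2.84) started below the median of all probe sets. The table gives no background reading, so a rise from such a level is less firmly tied to the transcript than the others.

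**Figure D2:**
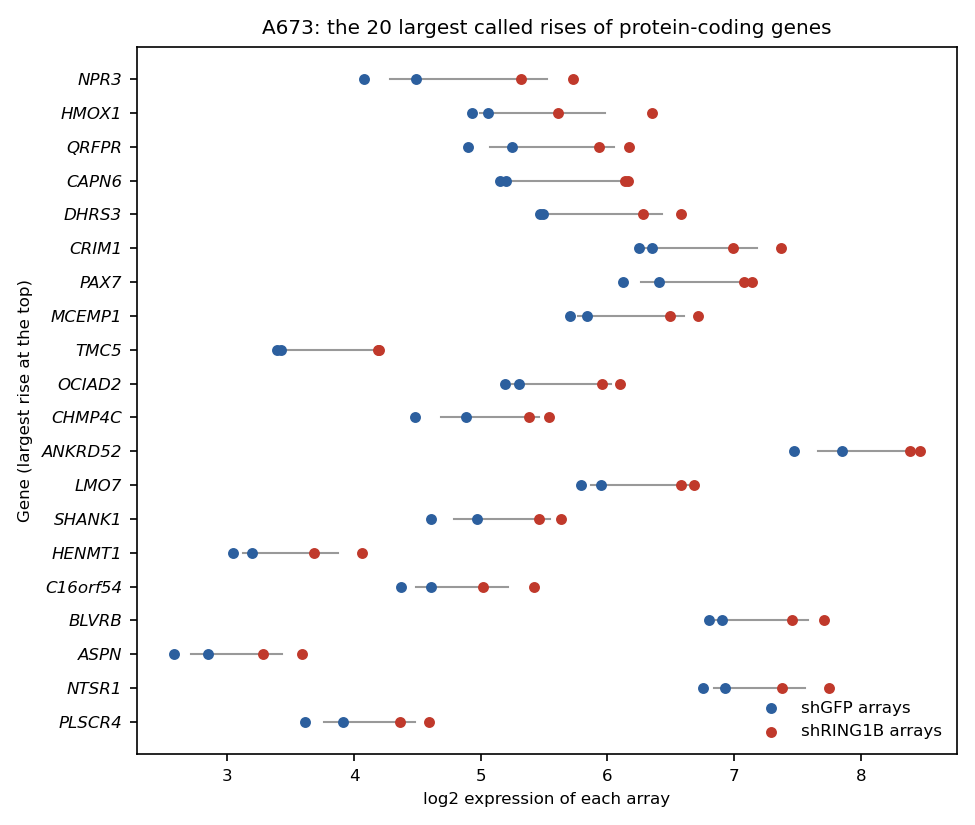
The 20 largest called rises of protein-coding genes, 1 row per gene with the largest at the top; the horizontal axis is log2 expression, blue points are the 2 shGFP arrays, red points the 2 shRING1B arrays, and grey lines join the group means. No gene's red and blue points overlap, which the choice of genes required. CAPN6 and TMC5 have close pairs of both colours, and HMOX1 has red points at 5.61 and 6.36.

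Most rises lost the call when 1 or another A673 array was left out. Such a fit keeps a single array for that hairpin, so a lost call does not show that the rise came from the array left out. Without shGFP replicate 2, 18 of the 20 largest lost the call (limma adjusted p 0.0624 to 0.257), the exceptions being CAPN6 and DHRS3. Without shGFP replicate 1, 11 lost it (0.0696 to 0.208), among them HMOX1, CRIM1, MCEMP1 and BLVRB. Without shRING1B replicate 1, 8 lost it (0.0615 to 0.141), among them PAX7 and SHANK1, and without shRING1B replicate 2, 11 lost it (0.0655 to 0.162). None of the 20 changed direction in any of these fits.

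The 10 largest falls were ZNF208, ZNF681, ZNF429, NEUROD6, LRCH2, DSG2, SESN3, KIF21A, TBX20 and ZNF675. Without shGFP replicate 2, ZNF681 and ZNF675 lost the call (limma adjusted p = 0.1 and 0.101), and ZNF675 also lost it without shGFP replicate 1 (0.0526) and without shRING1B replicate 1 (0.0653). The next 20 falls, at log2 changes of -1.40 to -1.74, covered other functions. Some spread between arrays of a hairpin, such as ZNF257 (5.69 and 6.54 under shGFP) and ATRNL1 (3.13 and 3.96 under shRING1B). Of these 20, ATRNL1 was the 1 that lost its call, without shGFP replicate 2 (limma adjusted p = 0.142). The zinc-finger genes among the falls belong to families of near-identical members that a probe set may not separate fully.

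Transcription factors and signalling proteins were among these falls. TBX5, a T-box factor of heart and limb, went from 7.31 and 7.58 to 5.89 and 5.95 (change -1.52, SE 0.149, limma adjusted p = 0.000933). PLAGL1, a zinc-finger factor expressed from the paternal allele, fell by 1.43 and NDN, the imprinted growth suppressor necdin, by 1.57. TIAM1, a guanine nucleotide exchange factor, went from 6.24 and 6.5002 to 4.76 and 4.82, and its groups lay over 1 unit apart (change -1.58, SE 0.13, limma adjusted p = 0.000444). PTN, the secreted growth factor pleiotrophin, was less even, with 6.07 and 6.72 under shGFP and 4.83 and 5.15 under shRING1B (change -1.40). DZIP1, a basal body protein of cilium formation, fell by 1.71, the sorting nexin SNX7 by 1.57, the melanosomal transporter OCA2 by 1.61 and the meiotic recombination protein MEIOB by 1.47. ZNF257, ZNF117, ZNF91, ZNF518B, ZNF626 and ZNF138 fell by 1.42 to 1.74.

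Genes in the highest of 4 equal level bins show falls from a strong signal. TMEM88, a membrane protein that restrains Wnt signalling, was at 9.66 and 9.62 under shGFP and at 8.16 and 8.10 under shRING1B. The arrays of a hairpin were nearly equal while the hairpins differed by 1.51 (SE 0.11, limma adjusted p = 0.000295). ASS1, the argininosuccinate synthase of arginine synthesis, went from 8.996 and 9.18 to 7.46 and 7.71, without overlap (change -1.50, limma adjusted p = 0.000444). PRPH, the intermediate filament peripherin of peripheral neurons, went from 8.13 and 8.39 to 6.73 and 6.92 (change -1.44). RAMP2, which pairs with the calcitonin receptor-like receptor to bind adrenomedullin, went from 7.71 and 7.75 to 6.17 and 6.34 (change -1.48). The 8 largest falls of this bin (NEUROD6, TBX20, DZIP1, ZNF117, TMEM88, ASS1, RAMP2 and PRPH) stayed called with each A673 array left out, with a highest adjusted p of 0.0295.

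The rises of the same level bin were smaller, and more of them lost the call when an array was left out. AHR, the ligand-activated aryl hydrocarbon receptor, went from 6.88 and 7.05 to 7.58 and 7.69 (change 0.67, SE 0.12, limma adjusted p = 0.0165). INAFM1 went from 7.28 and 7.30 to 7.95 and 7.96, with the arrays of a hairpin almost equal (change 0.67, limma adjusted p = 0.0154). The matrix glycoprotein EMILIN2 rose by 0.69, the cell-cycle zinc-finger factor ZNF367 by 0.69 and the progestin membrane receptor PAQR5 by 0.68. With ANKRD52, BLVRB and NTSR1 these are the 8 largest rises of the bin. All 8 lost the call without shGFP replicate 2 (limma adjusted p 0.0799 to 0.283) and without shRING1B replicate 2 (0.0601 to 0.183). Without shGFP replicate 1 (0.0726 to 0.188) and without shRING1B replicate 1 (0.0525 to 0.0686), 6 lost it.

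Functional classes were then described by their measured members, each against the background of 0.705% of protein-coding genes called higher and 3.48% called lower. Of 56 classes, 8 held more rises than falls, 32 more falls than rises and 11 no called member. Class medians ranged from -0.23 to 0.22 around the median of all genes, 0.01, and 22 of them changed sign under another scaling of the arrays. The counts are a description, with no test of a class.

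Receptors and their second messengers moved in both directions. Of 206 measured G protein-coupled receptors 4 were called higher (1.94%) and 9 lower (4.37%), with a median change of 0.01. Among the falls, LPAR4, a lysophosphatidic acid receptor, went from 8.57 and 8.91 to 7.53 and 7.71 (change -1.12). ADCYAP1R1, the receptor of the neuropeptide PACAP, fell by 1.06, the latrophilin ADGRL2 by 1.04 and the adhesion receptor ADGRB3 by 0.60. CALCRL, the receptor partner of RAMP2, fell by 1.14, so that both chains of the adrenomedullin receptor were called lower. Of 10 measured genes of the adrenomedullin and CGRP system, a list chosen after values were seen, these 2 were called and the median change was -0.11 (-0.17 without shRING1B replicate 2). Of 8 measured natriuretic peptide genes NPR3 was the 1 called, 7 were above 0 and the median change was 0.22, which became 0.08 without shRING1B replicate 2. Of 20 phosphodiesterases and cyclases the adenylyl cyclase ADCY3 rose by 0.63 and PDE7B fell by 0.74. LPAR4 and RAMP2 kept their calls with each A673 array left out. Of the 11 receptor and messenger genes named here or above (QRFPR and NTSR1 included), the other 9 lost the call without shGFP replicate 2 (limma adjusted p 0.0543 to 0.257). Without shGFP replicate 1, NTSR1, ADGRB3 and PDE7B lost it (0.0671 to 0.107), without shRING1B replicate 1, CALCRL, ADGRB3, ADCY3 and PDE7B (0.0669 to 0.12), and without shRING1B replicate 2, NTSR1 and ADCY3 (0.0754 to 0.145).

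Cadherins split by member. Of 51 measured cadherins and protocadherins 3 were called higher and 4 lower, and the median change was 0.08 (0.03 without shRING1B replicate 1). FAT3, a giant cadherin, went from 5.85 and 6.02 to 4.98 and 4.91 (change -0.99, limma adjusted p = 0.00144), while its relative FAT1 went from 7.31 and 7.11 to 7.86 and 7.69 (change 0.56, limma adjusted p = 0.038). Neither pair of groups overlapped. The photoreceptor cadherin CDHR1 fell by 0.79, the desmosomal cadherin DSG2 by 1.95, and PCDH20 and the calsyntenin CLSTN2 rose by 0.58 and 0.50.

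The lists of matrix proteases, of glycosyltransferases and sulfotransferases, and of versican and hyaluronan matrix held called falls and no called rise. With 0.705% of protein-coding genes called higher and 3.48% lower, lists of this size may hold no rise. The matrix genes EMILIN2 and ASPN, outside these lists, rose. Of 47 matrix proteases and inhibitors 3 were called lower (6.38%) and 0 higher. Their median change of 0.02 turned to -0.02 after cyclic loess scaling and to -0.08 without shRING1B replicate 2. ADAM23, a catalytically inactive ADAM that binds integrins, fell by 1.36, the membrane protease MMP16 by 0.89 and the protease inhibitor TIMP3 by 0.45. Of 54 glycosyltransferases and sulfotransferases 4 were called lower (7.41%) and 0 higher, with a median change of 0.03 that turned to -0.01 without shGFP replicate 2 and without shRING1B replicate 1. NDST3 (change -1.03), HS6ST2 (-0.87) and EXTL2 (-0.70) build or modify heparan sulfate, and GALNT13 (-0.62) starts mucin-type chains. Of 14 genes of the versican and hyaluronan matrix, chosen after values were seen, 2 were called lower (14.3%). The proteoglycan VCAN went from 4.67 and 4.94 to 3.50 and 3.37 (change -1.37) and the link protein HAPLN1 from 6.87 and 6.75 to 5.38 and 5.68 (change -1.28). A second probe set of VCAN, at a level of 2.16, had a change of -0.16. DSG2, FAT3, VCAN and HAPLN1 kept their calls with each A673 array left out. The other 11 adhesion and matrix genes named here lost the call without shGFP replicate 2 (limma adjusted p 0.0601 to 0.303). Of these 11, 5 lost it without shGFP replicate 1 (0.067 to 0.188), 8 without shRING1B replicate 1 (0.0615 to 0.168) and 5 without shRING1B replicate 2 (0.0629 to 0.126); CLSTN2, FAT1, PCDH20 and TIMP3 were among them each time.

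Guidance and growth factor genes were mostly not called. Of 27 axon guidance genes NTN1, the guidance cue netrin, went from 5.88 and 6.01 to 6.53 and 6.65 (change 0.64), and its receptor UNC5C went from 5.90 and 6.16 to 4.95 and 5.23 (change -0.94). A ligand thus rose while a receptor fell, and neither gene's groups overlapped. Of 21 Eph receptors and ephrins EFNA5 fell by 0.68, and of 72 secreted growth factors EGF rose by 0.60 and BMP2 fell by 0.54. Of 26 Notch pathway genes the divergent ligand DLL3 was the 1 called, a fall of 0.72. All 6 lost the call without shGFP replicate 2 (limma adjusted p 0.0872 to 0.289). Without shGFP replicate 1, 4 lost it (0.0714 to 0.164), without shRING1B replicate 1, 5 (0.0615 to 0.163), and without shRING1B replicate 2, 4 (0.0521 to 0.126).

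Targets of YAP and TEAD, the effectors of Hippo signalling, held 3 calls. Of 17 measured targets 14 were above 0, 3 were called higher (17.6%) and 0 lower, beside 0.705% and 3.48% of protein-coding genes. At these shares a list of 17 may hold no fall. The median change was 0.18, which became 0.10 without shRING1B replicate 2. The 3 were CRIM1, the four-jointed homologue FJX1 (7.14 and 6.99 to 7.71 and 7.64, change 0.61) and the angiomotin AMOTL2 (6.22 and 6.08 to 6.65 and 6.72, change 0.53).

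Structural genes of the cytoskeleton changed little. Of 21 genes of actin and focal adhesion 15 were above 0 and 1 was called, the adaptor PXN (change 0.52, median of the list 0.14, or 0.05 without shRING1B replicate 2 and 0.23 without shRING1B replicate 1). Of 44 keratins KRT18 rose by 0.59, of 12 calpains CAPN6 was the 1 called, and of 42 kinesins KIF21A was the 1 called, at -1.89. KIF21A and CAPN6 kept their calls with each A673 array left out. The other 5 genes of the cytoskeleton and YAP and TEAD targets named here lost the call without shGFP replicate 1 (limma adjusted p 0.0525 to 0.11), without shGFP replicate 2 (0.189 to 0.345) and without shRING1B replicate 2 (0.104 to 0.15). Without shRING1B replicate 1, 4 of them lost it (0.0971 to 0.15), and CRIM1 kept it.

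**Figure D3:**
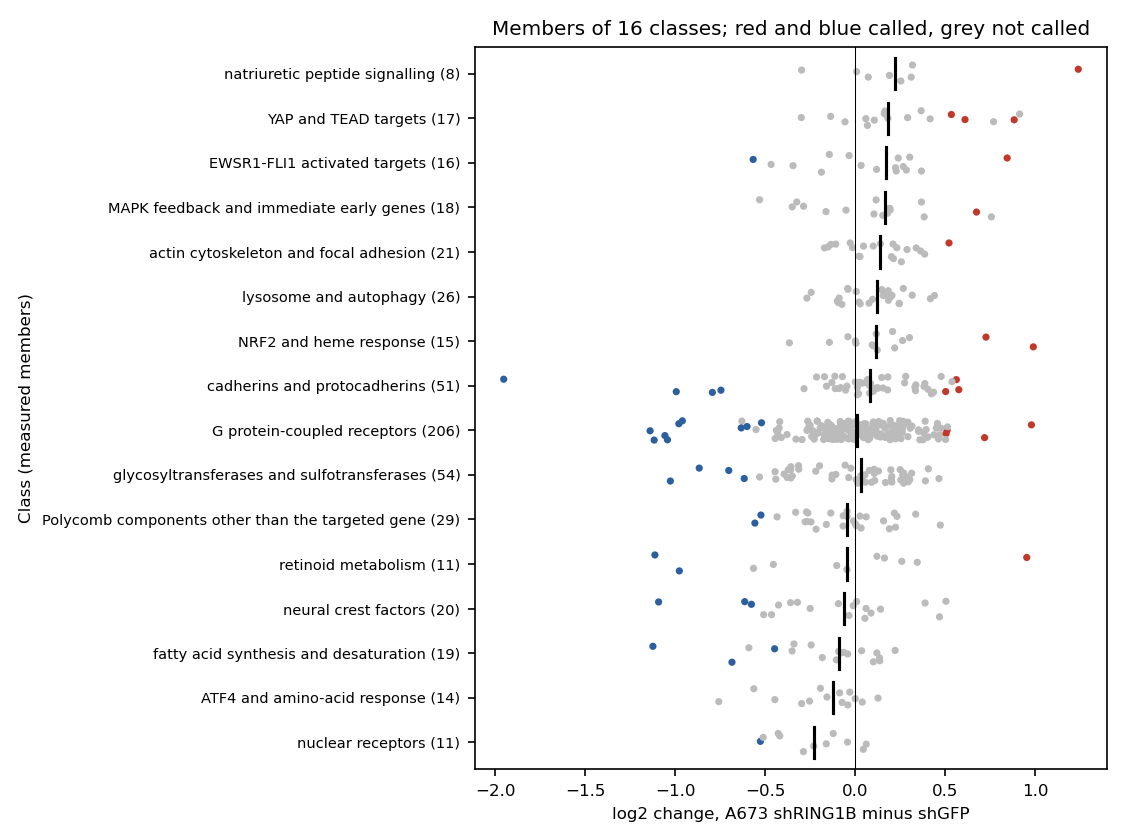
Members of 16 classes, chosen after values were seen, by log2 change in A673 (horizontal axis); each point is a measured gene (red called higher, blue called lower, grey not called), black bars are class medians, and the number of measured members follows each class name. The median of YAP and TEAD targets lies at 0.18 and that of nuclear receptors at -0.23, while the G protein-coupled receptors scatter on both sides of 0.01.

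Metabolic and stress genes gave a mixed picture. Of 15 genes of the heme and NRF2 (oxidative stress) response 12 were above 0, and HMOX1 and BLVRB were the 2 called, both higher. Of 11 measured retinoid genes DHRS3 rose, while CRABP2, the cellular retinoic acid carrier, went from 6.95 and 6.99 to 5.77 and 5.95 (change -1.11, limma adjusted p = 0.00102) and STRA6, the retinol uptake receptor, fell by 0.98. Of 19 genes of fatty acid synthesis 3 were called lower and 0 higher, with a median change of -0.09, which became -0.20 without shRING1B replicate 1, -0.15 without shGFP replicate 2, -0.055 without shGFP replicate 1 and -0.056 without shRING1B replicate 2. They were the acyl-CoA synthetase ACSL1 (5.81 and 5.77 to 4.57 and 4.76, change -1.12), the elongase ELOVL7 (-0.68) and the carboxylase ACACA (-0.45). Of 17 sterol genes SQLE fell by 0.56, and of 10 glycolysis genes PGM1 fell by 0.57.

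No member was called in some classes with uneven numbers above and below 0. Of 26 genes of lysosome and autophagy 18 were above 0 (median 0.12), and of 14 genes of the ATF4 amino-acid response 11 were below 0 (median -0.12, but 0.03 without shGFP replicate 2, -0.39 without shGFP replicate 1, -0.08 without shRING1B replicate 1 and -0.22 without shRING1B replicate 2). The smallest p of these lists belonged to HEXA (change 0.42, limma adjusted p = 0.148) and STC2 (-0.56, limma adjusted p = 0.0649). Of 26 oxidative phosphorylation genes 16 were above 0 (median 0.06, but -0.0004 without shGFP replicate 2). Of 24 ion channels 15 were below 0 (median -0.04, but 0.03 with arrays centred on their medians). Over all 14884 genes 7768 were above 0. Of 19 solute carriers SLC71A1 fell by 0.50. DHRS3, CRABP2 and ACSL1 kept their calls with each A673 array left out. The other 8 metabolic genes named here lost the call without shGFP replicate 2 (limma adjusted p 0.115 to 0.294). Of these 8, 6 lost it without shGFP replicate 1 (0.0814 to 0.188), 7 without shRING1B replicate 1 (0.0571 to 0.142) and 6 without shRING1B replicate 2 (0.0801 to 0.162); BLVRB, ACACA, PGM1 and SLC71A1 were among them each time.

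The largest list of protein turnover had called shares near those of all protein-coding genes (3.48% lower, 0.705% higher). Of 163 ubiquitin conjugating enzymes, F-box, KLHL and USP proteins 6 were called lower (3.68%) and 1 higher (0.613%). FBXL7, a substrate receptor of ubiquitin ligases, went from 6.77 and 6.96 to 5.55 and 5.59 (change -1.29), and KLHL4, a Kelch protein, from 5.79 and 5.89 to 4.60 and 4.38 (change -1.35). KLHL7, UBE2E2, UBE2L6 and KLHL6 fell by 0.79, 0.69, 0.65 and 0.57, and of 61 TRIM proteins TRIM33 fell by 0.61. Of 17 heat shock proteins and chaperones HSPA4L fell by 1.14 and HSPA12A by 0.62. Another probe set of HSPA12A, at a level of 3.65, had a change of -0.07.

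The lists of the core translation and splicing machinery held few calls. Of 53 cytosolic ribosomal proteins RPL31 was the 1 called (-0.70), of 73 mitochondrial ribosomal proteins MRPL13 (-0.80), of 56 spliceosome genes SRSF8 (-0.78) and of 17 cytosolic tRNA synthetases GARS1 (-0.56). Of 34 initiation and elongation factors EIF4E3, EIF1B and EEF1A2 fell by 0.85, 0.76 and 0.67. The medians of the ribosomal and spliceosome lists lay between -0.05 and -0.02, and turned to 0.02 to 0.05 when arrays were centred on their medians. FBXL7, KLHL4 and HSPA4L kept their calls with each A673 array left out, and the other 13 lost it without shGFP replicate 2 (limma adjusted p 0.0718 to 0.322). Of these 13, 9 lost it without shGFP replicate 1 (0.053 to 0.194), 12 without shRING1B replicate 1 (0.0522 to 0.156) and 9 without shRING1B replicate 2 (0.0503 to 0.163).

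Transcriptional regulators held more falls than rises, as did all protein-coding genes (3.48% called lower, 0.705% higher). Of 467 ZNF zinc-finger genes 34 were called lower (7.28%) and 3 higher. Beside those named above, ZNF486 went from 6.05 and 6.08 to 4.57 and 4.80 (change -1.38) and ZNF521, a progenitor cell factor, fell by 1.14. Of 67 ZBTB and KLF/SP factors SP8 and SP4 fell by 1.04 and 0.73 (2.99% called lower) and ZBTB4 rose by 0.54 (1.49% called higher). Of 11 nuclear receptors 9 were below 0 (median -0.23), and PPARG, the adipocyte regulator, was the 1 called (change -0.53, from 3.92 and 4.003, below the median of all probe sets). Of 20 neural crest factors TFAP2B went from 7.44 and 7.77 to 6.40 and 6.61 (change -1.09), ZIC1 fell by 0.61 and HAND2 by 0.58, and none was called higher. Among 21 myogenic genes PAX7 rose and EYA1, a transcriptional cofactor with phosphatase activity, went from 7.86 and 7.94 to 6.80 and 6.83 (change -1.09, limma adjusted p = 0.00144).

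The lists of chromatin genes and of targets of the fusion held 1 or 2 calls each, beside the background of 3.48% lower and 0.705% higher. Of 29 measured Polycomb components other than the targeted gene, the PRC2 partner MTF2 fell by 0.52 and SCML2 by 0.56 (6.90% called lower), and none was called higher. Of 34 genes of Trithorax, SWI/SNF, NuRD and DNA methylation DNMT3B fell by 0.57 (2.94%), and of 24 repair genes NBN fell by 0.55 (4.17%). Of 16 measured targets activated by EWSR1-FLI1, PAX7 was called higher and KIT, the stem cell factor receptor, lower (7.5002 and 7.63 to 7.01 and 6.98, change -0.57), 6.25% each way, with a median change of 0.17 (0.11 without shRING1B replicate 1). Of 18 MAPK feedback and early genes the ETS factor ETV4 rose by 0.67. ZNF518B, ZNF486, ZNF521, TFAP2B and EYA1 kept their calls with each A673 array left out. Without shGFP replicate 2, 13 genes of these lists named here lost the call (limma adjusted p 0.148 to 0.345), PAX7, KIT, MTF2, SCML2 and PPARG among them. Leaving out shGFP replicate 1 (0.0649 to 0.163), shRING1B replicate 1 (0.0571 to 0.186) and shRING1B replicate 2 (0.0506 to 0.194) ended 9, 11 and 10 calls, KIT, MTF2, SCML2 and DNMT3B always among them.

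Among genes that do not encode protein, called were 2.29% of 1398 long noncoding RNA genes (9 higher, 23 lower), 2.91% of 447 transcribed pseudogenes (5 higher, 8 lower) and 1.03% of 1072 microRNA genes (6 higher, 5 lower), beside 4.19% of protein-coding genes; these shares were not tested against each other. Their median levels were 3.89, 4.14 and 3.20, against 5.83. The vault RNA VTRNA1-3 went from 5.80 and 5.28 to 6.40 and 6.95, a rise of 1.14 whose arrays spread widely (SE 0.271, limma adjusted p = 0.0497). ZNF300P1, PSG8-AS1 and MGC70870 rose by 0.98, 0.75 and 0.68. The largest falls were LINC00648 (4.94 and 5.89 to 3.41 and 3.82, change -1.80), ZNF667-AS1 (-1.43), LINC01278 (-1.41) and RAMP2-AS1 (7.08 and 7.52 to 5.89 and 5.98, change -1.36). RAMP2-AS1 lies beside RAMP2, which fell by a like amount; whether the probe sets separate the strands is not given in the sources used here. Among other long intergenic RNAs LINC00470 fell by 1.33, LINC02381 by 1.03, LINC00518 by 0.88 and LINC00987 by 0.51, and the small nuclear RNA SCARNA2 fell by 0.56. Another probe set of LINC00987, at a level of 4.51, had a change of -0.25. LINC00648, ZNF667-AS1, LINC01278, RAMP2-AS1 and LINC00470 kept their calls with each A673 array left out.

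MicroRNA genes were read from their whole transcripts, which does not measure the mature RNA. The largest fall was MIR1299, at 5.63 and 5.87 under shGFP and 4.39 and 4.95 under shRING1B (change -1.09, limma adjusted p = 0.0138). MIR1290, at 4.94 and 4.85 against 4.06 and 3.66, fell by 1.03, MIR1204 by 0.88 and MIR1538 by 0.64. MIR411, MIR499A and MIR331 rose by 0.63, 0.57 and 0.53, all from levels below the median of all probe sets. Another probe set of MIR499A, at a level of 2.91, had a change of 0.03. On the chosen probe sets the groups of these microRNA genes did not overlap. Their mature sequences from RefSeq (GRCh38.p14) are shown for the 2 falls of 2-fold and for MIR331, whose change also differed between lines; capitals mark the seed, bases 2 to 8 from the 5′ end, and no 2 of the 4 share a seed.
hsa-miR-1299: uUCUGGAAuucugugugaggga
hsa-miR-1290: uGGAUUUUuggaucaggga
hsa-miR-331-5p: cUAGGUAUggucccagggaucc
hsa-miR-331-3p: gCCCCUGGgccuauccuagaa
They lie at chr9:40929010-40929031 and chr1:18897078-18897096 on the minus strand and chr12:95308445-95308466 and chr12:95308480-95308500 on the plus strand. Without shGFP replicate 2 the microRNA genes MIR1299, MIR1538, MIR411, MIR1204, MIR499A and MIR331 lost the call (limma adjusted p 0.141 to 0.233), as did MIR1290 (0.221). Of all 19 noncoding genes named in these 2 paragraphs other than MIR1290, 14 lost it without shGFP replicate 2 (0.0934 to 0.339), 10 without shGFP replicate 1 (0.0636 to 0.177), 13 without shRING1B replicate 1 (0.0564 to 0.17) and 9 without shRING1B replicate 2 (0.0716 to 0.196).

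Promoter sequence was compared between called genes and all measured protein-coding genes, of which 9707 of 11915 had a promoter in the RefSeq table (250 bases before to 50 after the start). Among them were 63 rises and 313 falls. C plus G content was alike, with medians of 65% in rises, 64% in falls and 63.7% in all. The motif GGAAGGAA, a pair of the GGAA units that ETS factors and EWSR1-FLI1 bind, was in 6 of the 63 promoters of rises (9.52%), in 3.51% of those of falls and in 3.74% of all, on either strand. The single ETS site CCGGAAGT went the other way, in 1 promoter of rises (1.59%), 2.88% of falls and 6.89% of all. The AP-1 motif TGAGTCA was in 5 promoters of rises (7.94%) and 3.52% of all, the CRE motif TGACGTCA in 3 (4.76%) and 2.72%. The E-box CACGTG was in 7 (11.1%) and 9.10%, CCAAT in 14 (22.2%) and 36.2%, and TATAAA in 2 (3.17%) and 8.19%. In falls these 5 motifs were in 2.56%, 1.60%, 7.35%, 35.5% and 5.43%. Among all measured genes of the upper 2 level bins they were in 2.36%, 3.60%, 10.5%, 37.5% and 4.78%. GGAAGGAA and CCGGAAGT were there in 3.60% and 9.96%. The shares in rises thus rest on few promoters, and those over all genes vary with level. A match is a description of the letters, and no binding was measured.

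Stretches around GGAAGGAA before the start are shown for 3 rises and 2 falls, chosen after their values were seen, to set both directions side by side. Each is given 5′ to 3′ on the gene's strand, with the motif, or its reverse complement TTCCTTCC, in capitals.
TIFA: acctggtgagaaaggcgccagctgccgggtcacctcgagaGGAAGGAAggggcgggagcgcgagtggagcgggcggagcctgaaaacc
FBLN5: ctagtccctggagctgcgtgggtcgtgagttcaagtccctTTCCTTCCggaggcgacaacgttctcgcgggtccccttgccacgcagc
OSMR: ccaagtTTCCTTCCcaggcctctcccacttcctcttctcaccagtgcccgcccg
ADGRL2: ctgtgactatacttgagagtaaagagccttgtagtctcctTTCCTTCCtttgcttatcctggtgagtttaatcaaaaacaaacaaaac
TSPAN2: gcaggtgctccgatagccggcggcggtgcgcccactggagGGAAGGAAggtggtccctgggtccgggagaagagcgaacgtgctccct
In GRCh38.p14 these are chr4:112285924-112286011 (TIFA, minus), chr14:91947814-91947901 (FBLN5, minus), chr5:38845762-38845815 (OSMR, plus), chr1:81800126-81800213 (ADGRL2, plus) and chr1:115089643-115089730 (TSPAN2, minus). TIFA, an adaptor of NF-kB signalling, went from 5.38 and 5.46 to 6.03 and 5.91 (change 0.55). OSMR, the oncostatin M receptor, went from 6.998 and 6.995 to 7.55 and 7.62 (change 0.59), and the elastic fibre protein FBLN5 rose by 0.53. The tetraspanin TSPAN2 went from 5.92 and 6.59 to 4.78 and 5.24 (change -1.25). The same motif therefore stood before genes that rose and genes that fell. These 5 calls were lost without shGFP replicate 2, where the adjusted p was 0.222, 0.296, 0.222, 0.0718 and 0.106 in the order of the sequences.

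Counts by size of change depended on the scaling of the arrays, and the deposited values were brought to like distributions by RMA. As deposited, among 10724 genes that moved by under 0.25 on the log2 scale, more were higher (5709) than lower (5015), and so it was among the 3233 between 0.25 and 0.5 (1786 against 1447). From 0.5 to 1 the order turned, with 271 higher and 530 lower, and at 1 or more 2 were higher and 124 lower. After cyclic loess the counts under 0.25 were 5591 higher and 5274 lower, and from 0.5 to 1 they were 238 and 548. With arrays centred on their medians, more were higher also from 0.5 to 1 (465 against 411), and at 1 or more 8 were higher and 106 lower. Under repeated quantile normalization the counts at 1 or more were 4 and 113. These scalings were added after seeing the data. Both shRING1B arrays lay above both shGFP arrays in 3874 genes (26.0%) and below them in 3550 (23.9%). In the band under 0.25 these counts were 2047 and 1658, and none of those genes was called. All 105 rises and all 452 falls were without overlap.

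Falls were spread unevenly over the level of expression. In 4 bins of 3721 genes by the mean of the 4 A673 arrays, 23, 165, 162 and 102 genes were called lower from the lowest to the highest bin (0.618%, 4.43%, 4.35% and 2.74%). Rises numbered 23, 12, 41 and 29 (0.618%, 0.322%, 1.102% and 0.779%), so that the lowest bin was the 1 with equal numbers. Falls of 2-fold or more numbered 2, 47, 53 and 20. The median difference between the 2 shRING1B arrays fell from 0.19 in the lowest bin to 0.0985 in the highest, and between the 2 shGFP arrays from 0.151 to 0.0913. A level depends on the probes of a probe set as well as on the transcript, so the bins sort probe sets and not transcript numbers.

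The share of genes called lower was higher in bins of longer genes. In 5 bins of 2383 protein-coding genes by gene length, 42, 38, 77, 107 and 151 were called lower (1.76%, 1.59%, 3.23%, 4.49% and 6.34%), the shortest bin ending at 7.857 kb and the longest starting at 88.39 kb. Rises numbered 11, 16, 15, 22 and 20. The median gene length was 55.5 kb for falls, 39.3 kb for rises and 26.7 kb for all measured. Within the upper 2 level bins the shares called lower were 2.32%, 1.89%, 2.86%, 4.57% and 5.76%, and without chromosomes 1, 7, 8 and 19 they were 1.61%, 1.52%, 2.60%, 3.21% and 5.83%. Both checks were chosen after seeing the data. The medians of all genes in the bins moved little, from 0.03 in the shortest to -0.02 in the longest. Both shRING1B arrays lay below both shGFP arrays in 441 genes of the shortest bin and 797 of the longest, and above them in 662 and 610. The median difference between arrays of a hairpin was smaller in the longest bin (0.111 against 0.135 for shGFP, 0.123 against 0.158 for shRING1B). Its part in the shares called was not tested.

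**Figure D4:**
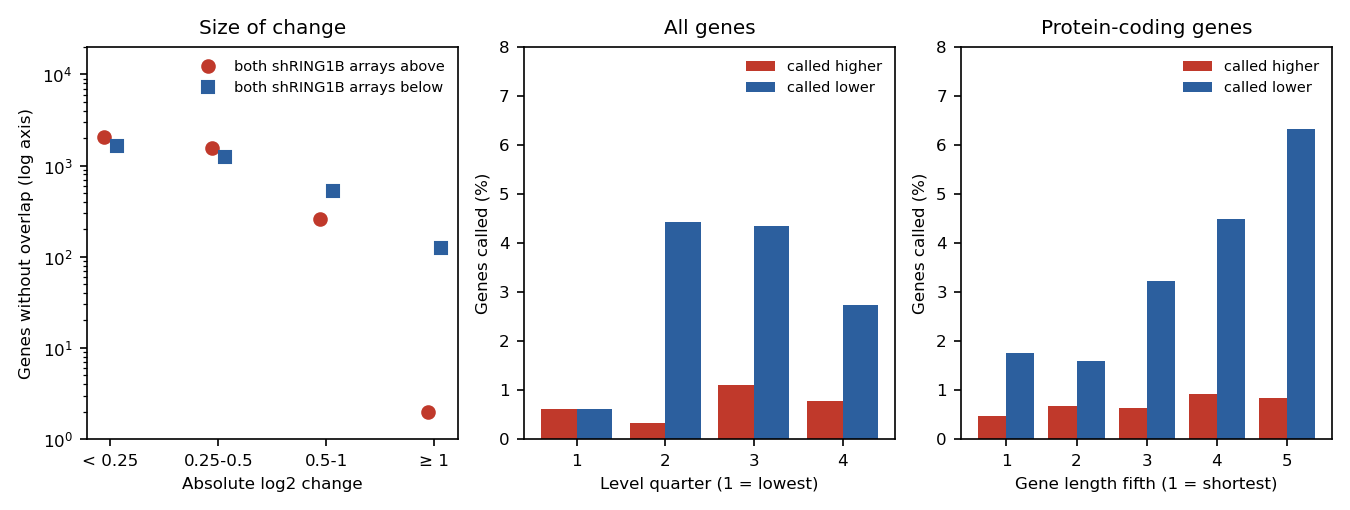
Left, genes whose shGFP and shRING1B arrays do not overlap, by absolute log2 change (log axis), with red circles for genes higher and blue squares for genes lower under shRING1B; middle and right, percent of genes called higher (red) and lower (blue) by level bin and, for protein-coding genes, by gene length bin. In the deposited scaling genes higher outnumber genes lower under 0.5 and not above it, and the share called lower climbs to 6.34% in the longest bin.

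The share of genes called lower varied between chromosomes, which was not tested. On chromosome 8, 34 of 426 protein-coding genes were called lower (7.98%), on the X chromosome 30 of 428 (7.01%), on chromosome 7 37 of 536 (6.90%) and on chromosome 4 26 of 489 (5.32%). On chromosome 14 it was 1 of 354 (0.282%), on chromosome 16 5 of 522 (0.958%) and on chromosome 9 6 of 454 (1.32%). The X chromosome also had the lowest median change, -0.07, with 255 of its 428 genes below 0. With arrays centred on their medians that median was 0.001, still the lowest, so its sign depends on the scaling. In SK-ES1 the median of the X chromosome was -0.03 as deposited. Its share of falls was among the 3 highest of the chromosomes in each of 17 other settings, from 3.04% without shGFP replicate 2 to 10.8% with genes below the median of all probe sets left out.

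The choice of X-linked falls named here was made with their values known. NAP1L3, a nucleosome assembly protein, went from 5.77 and 6.06 to 4.80 on both shRING1B arrays (change -1.12, limma adjusted p = 0.00138). HMGN5, a nucleosome-binding protein, went from 6.36 and 6.60 to 5.48 and 5.53 (change -0.97, limma adjusted p = 0.00188), and AMER1, a negative regulator of Wnt signalling, from 6.31 and 6.05 to 5.20 and 5.18 (change -0.99). The groups of all 3 were apart. DCX, the doublecortin of migrating neurons, fell by 0.78, the glypican GPC3 by 0.76 and PHF6, a chromatin-associated tumour suppressor, by 0.47. With each A673 array left out, 12 of the 30 stayed called: LRCH2, KLHL4, HDX, NHS, NHSL2, NAP1L3, NUP62CL, NUDT10, HMGN5, LPAR4, PWWP3B and ZC3H12B. NUDT10 has a near-identical neighbour, NUDT11, so their 2 falls may not be separate readings. AMER1 lost the call without shGFP replicate 1 (limma adjusted p = 0.051), and DCX, GPC3 and PHF6 lost it without at least 1 array, with a highest adjusted p of 0.126, 0.303 and 0.262. The 2 X-linked rises were CAPN6 (0.97) and MAMLD1 (0.53).

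**Figure D5:**
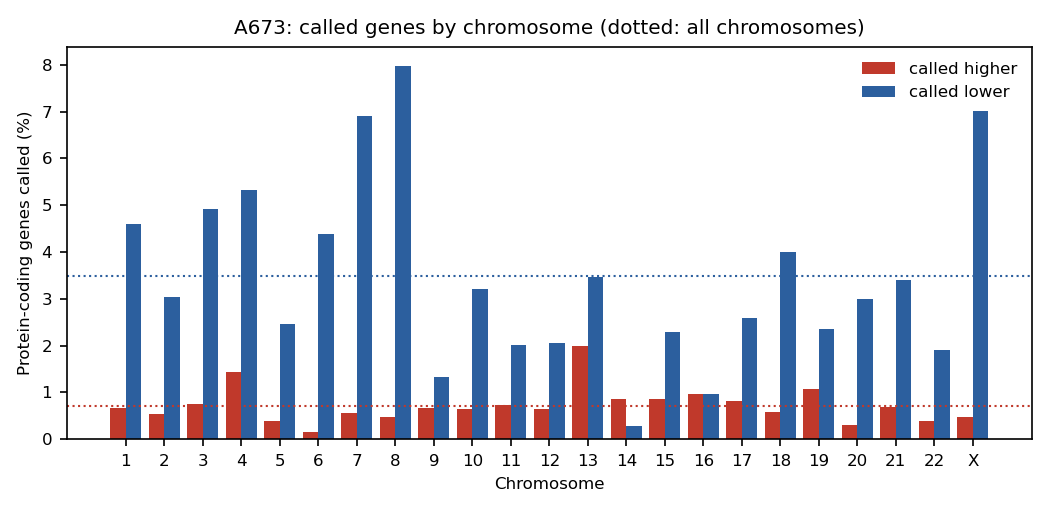
Percent of the measured protein-coding genes of each chromosome called higher (red) and lower (blue) in A673; dotted lines give the shares over all chromosomes (0.705% and 3.48%). The blue bars of chromosomes 8, X and 7 stand highest and that of chromosome 14 lowest.

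Differences between 2 single arrays of a hairpin were set beside differences between the group means. A mean of 2 arrays varies less than a single array, so these measures are not like for like. The median absolute difference was 0.126 between the 2 shGFP arrays, 0.148 between the 2 shRING1B arrays and 0.149 between the group means. The tails were unequal: 12 genes lay 1 or more apart between the shGFP arrays and 40 between the shRING1B arrays. In the 4 pairings of an shRING1B with an shGFP array, 95 to 229 genes were lower by 1 or more and 17 to 34 higher. In all 4 pairings together 62 genes were lower by 1 or more and 0 were higher. With 2 arrays against 2, an exact permutation test of 1 gene cannot go below p = 0.333.

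Calls held with each A673 array left out numbered 96 (0.645% of genes), of which 94 were falls and 2 rises. Of the 105 rises 15, 2, 20 and 13 stayed called and higher without shGFP replicate 1, shGFP replicate 2, shRING1B replicate 1 and shRING1B replicate 2. Of the 452 falls it was 253, 97, 166 and 249. When SK-ES1 was left out of the fit, 12 of the rises and 199 of the falls stayed called. Under other normalizations more remained, 88 rises and 432 falls after cyclic loess and 89 and 379 after repeated quantile normalization.

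A second probe set on the same arrays was available for 19 called genes. It had the same sign in 4 of 5 rises and 12 of 14 falls, and in 11 of 11 cases where it lay above the median of all probe sets. It was itself called, in the same direction, for the cyclin CCND2 (change -0.71 against -1.04 for the chosen probe set), for OXR1, which protects from oxidation (-0.91 against -1.08), and for ZNF322 (-0.82 against -0.95). Without 1 array the chosen probe sets of these 3 lost the call, with a highest adjusted p of 0.0576 for CCND2 (without shGFP replicate 1) and of 0.124 and 0.158 for OXR1 and ZNF322 (without shGFP replicate 2). The probe sets disagreed in sign for C1QTNF9 (0.51 against -0.73), HIVEP2 (0.07 against -0.73) and ZNF57 (-0.11 against 0.60).

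The genes called in A673 had median changes near 0 in SK-ES1, although single genes moved further. In SK-ES1 TMEM88 changed by -0.76 (limma adjusted p = 0.0525) and PTN by 0.44 (limma adjusted p = 0.687). Of the 105 rises 47 were above 0 there, with a median change of -0.03, and of the 452 falls 269 were below 0, with a median of -0.05, where 51.0% of all genes were below 0. In SK-ES1, 10 genes were called, of which 0 were among the A673 rises and 1 among the A673 falls with the same sign. The difference between lines was itself called for 117 genes, of which 11 were among the rises and 92 among the falls. For the other rises and falls no difference between the lines was shown. For DHRS3 the change was 0.95 in A673 and -0.06 in SK-ES1 (limma adjusted p of the difference 0.045), and for AHR 0.67 and -0.29 (0.0414). Unequal depletion of RING1B and an unequal response cannot be told apart, since RNF2 was not analysed here.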

How the data were processed

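RNA of 8 samples, grouped by the cell line and hairpin in their labels, was prepared with a Qiagen protocol and put on Affymetrix whole-transcript arrays, per the labels' protocols. The deposited table holds log2 expression values per probe set; RMA and limma are named in the submitters' processing notes, with no versions. RMA corrects background, makes the arrays' distributions equal and summarises probes, which can mute a shift shared by most genes. Depth does not apply to arrays, whose number limits the precision.

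Of 48144 probe sets 16098 (33.4%) were named to 1 gene symbol, 0 to several and 32046 to none here. Where a gene had several (779 genes), the one with the highest mean over the 8 arrays was kept. Limma 3.58.1 (R 4.3.3) fitted 4 group means to the 8 arrays and tested shRING1B minus shGFP in A673 over 14884 genes; p-values were adjusted by Benjamini-Hochberg and called under 0.05. The fit was tested on simulated data. SE is the moderated standard error.

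The members and lists were chosen with earlier results of these data known, and 3 lists after these values were seen. The genes named include the 20 largest protein-coding rises and the 30 largest protein-coding falls called, for which groups without overlap were required. The others are the 8 largest rises and falls of the highest level bin, the largest calls of other gene types, and called members of the lists. Genes chosen otherwise are said to be. Alternatives were array centring, cyclic loess, repeated quantile normalization, array weights, a trended and robust variance, the 4 A673 arrays alone, a filter on low values, protein-coding genes only, the mean of a gene's probe sets, and each array left out. Those in the report said to be chosen after seeing the data were added later. Promoter and microRNA sequences are from RefSeq (GRCh38.p14).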

Additional observations from a re-analysis of the deposited data

Results flagged for a closer look

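The change under the RING1B hairpin differed between A673 and SK-ES1 for 49 of the genes named in the report, by limma's test of the difference between the lines' changes (adjusted p 0.00562 to 0.0463). Each value in parentheses is the log2 change in A673 minus that in SK-ES1. The rises were DHRS3 (1.01), MCEMP1 (1.19), LMO7 (0.99), INAFM1 (0.94), AHR (0.96), MIR331 (0.88). Among zinc-finger and other transcription regulators the difference was called for ZNF208 (-2.15), ZNF429 (-1.99), ZNF91 (-1.77), ZNF518B (-1.52), ZNF138 (-1.11), ZNF486 (-1.56), ZNF521 (-1.03), NEUROD6 (-1.89), TBX20 (-1.57), TBX5 (-1.17), PLAGL1 (-1.30), EYA1 (-0.95). Among genes of receptors, adhesion and matrix it was called for DSG2 (-1.93), FAT3 (-0.99), ADAM23 (-1.45), VCAN (-1.29), HAPLN1 (-1.42), HS6ST2 (-1.09), RAMP2 (-1.20), ADCYAP1R1 (-1.42), ADGRL2 (-1.16), UNC5C (-1.16), PTN (-1.84). Among genes of signalling, cytoskeleton and transport it was called for TIAM1 (-1.83), KIF21A (-1.60), DZIP1 (-1.66), SNX7 (-1.45), OCA2 (-1.89), LRCH2 (-2.13), NDN (-1.23). Among genes of metabolism, protein handling and meiosis it was called for ASS1 (-1.47), CRABP2 (-0.93), ACSL1 (-1.22), FBXL7 (-1.59), KLHL4 (-1.17), HSPA4L (-1.17), MEIOB (-1.24). Among noncoding genes that fell in A673 it was called for ZNF667-AS1 (-1.49), LINC01278 (-1.19), LINC00470 (-1.44), LINC02381 (-1.51), MIR1299 (-1.53), MIR1538 (-1.11). Most of these genes were named because they were called in A673, so the selection favours a large difference, and whether the hairpin lowered RING1B equally in both lines was not analysed here.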

How the results depend on the processing

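The 557 calls became 213 when SK-ES1 was left out of the fit and 1052 with a robust, trended variance. The 105 rises became 202 with arrays centred on their medians, 190 without probe sets under the median, 160 over protein-coding genes only, 12 without SK-ES1 and 345 with the trended variance. The 452 falls became 201 without SK-ES1 and 707 with the trended variance. Rises made up 18.9% of the calls as reported, 38.7% after centring, 32.8% with the trended variance and 5.63% without SK-ES1. Leaving out each of the 8 arrays in turn gave 101 to 434 calls, 2 to 61 rises, 99 to 373 falls and 78 to 175 falls of 2-fold or more. The lowest counts came without A673 shGFP replicate 2; the cause was not tested. No named gene changed direction in any of the 17 settings run for it. The median changed sign under another scaling in 22 of the 56 lists, the retinoid, ZNF, Polycomb and neural crest lists among them. No paired analysis was possible because the labels carry no replicate numbers, and those used here follow the order of the samples. With 2 arrays per group, small changes cannot be told from the spread between arrays.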
